A study of Mus musculus with 14 samples.

Results

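Tes, Rnd1, Abtb2, B3galt1, Ddx28, Atad3a and Atxn7 are 7 of the 12085 genes measured in mouse liver on 14 Affymetrix arrays. They were chosen from the measured values themselves: each was higher after tunicamycin in WT liver, and in lsPERK liver that response was smaller or turned round. The choice used both tunicamycin responses and their difference, so the values of the 7 genes, and the calls that the fit over all genes gives them, are a description and not a test of a finding. The 7 genes have 19 probe sets, and each gene is described by its brightest one, with the others as a check.

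The samples were 4 arrays of lsPERK liver after tunicamycin, 3 of lsPERK control liver, 4 of WT liver after tunicamycin and 3 of WT control liver. Tunicamycin, which blocks N-linked glycosylation and so causes endoplasmic reticulum stress, was given at 1 mg/kg for 6 h, and control mice received 0.3% DMSO. The series calls lsPERK a knock-out. The labels and the series text name no deleted exon, Cre driver, control allele, age or sex. Nor do they say that arrays of a group came from separate mice, so errors measure the spread between these arrays only. In bulk liver, fewer cells of a type and less RNA per cell cannot be told apart.

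PERK is a kinase of the endoplasmic reticulum membrane that phosphorylates eIF2 when unfolded proteins accumulate. Most translation then slows, while mRNAs such as that of the transcription factor ATF4 are translated better, and ATF4 and CHOP raise genes of amino acid supply, redox control and feedback. The 7 genes are not textbook members of that programme. Tes and Rnd1 act on the actin cytoskeleton, Abtb2 belongs to the BTB proteins of ubiquitin ligases, B3galt1 builds glycans in the Golgi, Ddx28 and Atad3a are mitochondrial, and Atxn7 is a chromatin protein.

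The upstream sequences of Tes and Ddx28 are shown because these 2 genes had the highest rises in WT liver. Each is the 250 bases before the annotated start, from RefSeq on GRCm38.p6, and capitals mark CCAAT boxes in either orientation. The Tes stretch is chr6:17064899-17065148 on the plus strand, and that of Ddx28 is chr8:106011487-106011736 on the minus strand. The last line is a 30-base site of Ddx28, chr8:106011446-106011475 on the minus strand, where capitals mark an ATF/CRE palindrome at bases 23 to 30 after the start.
Tes: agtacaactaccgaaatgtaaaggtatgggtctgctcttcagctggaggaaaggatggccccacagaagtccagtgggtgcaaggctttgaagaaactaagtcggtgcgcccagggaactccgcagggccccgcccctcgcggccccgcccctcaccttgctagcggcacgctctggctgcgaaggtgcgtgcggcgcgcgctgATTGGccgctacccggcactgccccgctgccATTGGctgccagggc
Ddx28: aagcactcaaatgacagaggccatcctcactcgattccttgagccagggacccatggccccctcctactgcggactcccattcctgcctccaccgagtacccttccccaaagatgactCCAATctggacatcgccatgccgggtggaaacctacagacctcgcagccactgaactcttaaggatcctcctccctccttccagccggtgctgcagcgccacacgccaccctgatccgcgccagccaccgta
Ddx28 site: ggtggcgtgctTGACGTCAttagcgcgcgc

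RefSeq windows of 300 bases (250 before the start and 50 after it) were found for 5 of the 7 genes, Tes, Abtb2, B3galt1 (2 windows), Ddx28 and Atxn7. Motifs of stress factors were searched on both strands: the C/EBP-ATF response element TGATGNAA, the ATF/CRE palindrome TGACGTCA, the UPRE TGACGTGG, ERSE, ERSE-II and the AP-1 site TGANTCA. The site of Ddx28 was the only match, and TGACGTCA was present in 1.79% of the 32851 windows in the table. The other 4 genes held none of the 6 motifs, which occur in 3.97% (TGATGNAA), 0.676% (TGACGTGG), 0.119% (ERSE), 0.0365% (ERSE-II) and 7.81% (TGANTCA) of windows. These matches describe letters only, and an absent match says nothing of any factor.

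CCAAT boxes were counted after the sequences had been read. Tes had 2, at −46 to −42 and −15 to −11, and Abtb2 had 2, at −106 to −102 and −74 to −70. The windows of B3galt1 had 2 and 1, Ddx28 had 1 at −132 to −128, and Atxn7 had 0. A CCAAT box was present in 37.4% of all windows, and the same letters form part of ERSE. The GC content of the upstream stretches was 64.8% for Tes, 62.8% for Abtb2, 68% and 41.2% for B3galt1, 60.4% for Ddx28 and 64.4% for Atxn7, against a median of 52.4% over all windows (quartiles 45.2% and 61.2%).

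Median deposited intensity per array lay between 34.45 and 53.39, and values are given after quantile normalization unless deposited values are named. Eif2ak3, which encodes PERK, differed by −2.75 on the log2 scale between tunicamycin-treated lsPERK and WT livers (SE 0.18, limma adjusted p = 1.47e-07), lower in lsPERK. Under control its difference was −1.27, with an adjusted p of 0.309. Neither the labels nor the series text say whether its probe set lies in the deleted part of the gene. Hepatocyte markers dominated every array. Their summed intensity was 102900 to 108800 in lsPERK liver after tunicamycin and 104900 to 109700 in lsPERK control liver, and 109100 to 114300 in WT liver after tunicamycin and 105200 to 108700 in WT control liver. The WT ranges did not overlap, and after tunicamycin the lsPERK range lay wholly below the WT range. Marker sums of Kupffer, stellate, sinusoidal endothelial and lymphocyte cells overlapped between tunicamycin and control in both genotypes, and those of cholangiocytes and neutrophils overlapped in WT liver. By single genes, 2 of 5 stellate, 2 of 6 sinusoidal and 1 of 7 Kupffer markers were called lower in the WT response, and none of these in the lsPERK response. Called higher were 1 of 6 hepatocyte markers in the WT response and 1 of 3 measured cholangiocyte markers in the lsPERK response. In lsPERK liver the sum of 3 of 5 cholangiocyte markers ran from 153.4 to 270.1 after tunicamycin and from 101.8 to 126.5 under control. That of 3 of 4 neutrophil markers ran from 98.03 to 113.4 after tunicamycin and from 115.4 to 510.8 under control. The log2 ratio of 3′ to 5′ actin signal was 0.683 ± 0.0991 in lsPERK liver after tunicamycin and 0.866 ± 0.249 in lsPERK control liver (SD, n = 4 and 3). It was 0.842 ± 0.25 in WT liver after tunicamycin and 1.09 ± 0.146 in WT control liver (SD, n = 4 and 3). The part of these markers and ratios in the 7 genes' values was not tested, except that the ratio was entered as a covariate in an alternative fit.

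All 7 genes were called higher after tunicamycin in WT liver (limma, adjusted p under 0.05), and 20.7% of all genes were. None of the 7 was called lower there, as 26.0% of all genes were. In lsPERK liver Tes was the 1 gene called higher (8.42% of all genes) and 5 were called lower, Rnd1, Abtb2, B3galt1, Atad3a and Atxn7 (7.27% of all genes). The difference of responses, lsPERK minus WT, was called below 0 for all 7 (9.67% of all genes) and above 0 for none of them (10.2% of all genes). After tunicamycin, all 7 were called lower in lsPERK relative to WT, as 16.8% of all genes were. The genes were picked on these contrasts, so nothing is read from their counts. Ranges over arrays did not overlap for 7 of 7 between WT tunicamycin and WT control (21.6% of all genes, higher), and for 7 of 7 between lsPERK and WT after tunicamycin (17.7%, lower). In lsPERK liver, 5 of 7 lay wholly below control (13.8%).

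The split of all called genes into higher and lower depended on the scaling. Higher calls were 53.7% of calls in the lsPERK response and 44.2% in the WT response with quantile normalization, 58.3% and 83.7% with values as deposited, and 71.7% and 60.7% with median centring. For the difference of responses, the share above 0 was 51.3%, 6.79% with deposited values and 35.6% with median centring. For lsPERK against WT after tunicamycin the share higher was 52.4%, 26.5% and 37.3%. With deposited values the median of all genes was −0.07 in the lsPERK response and 0.30 in the WT response, against −0.02 and −0.13 with quantile normalization. No response of the 7 genes in either genotype changed sign under any of these scalings. Counts in the related lists further on stand beside the shares over all genes. With quantile normalization these were 8.42% higher and 7.27% lower in the lsPERK response, and 20.7% and 26.0% in the WT response. List counts with deposited values stand beside the 83.7% of WT calls that were higher. No list was tested against these shares.

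**Figure D1:**
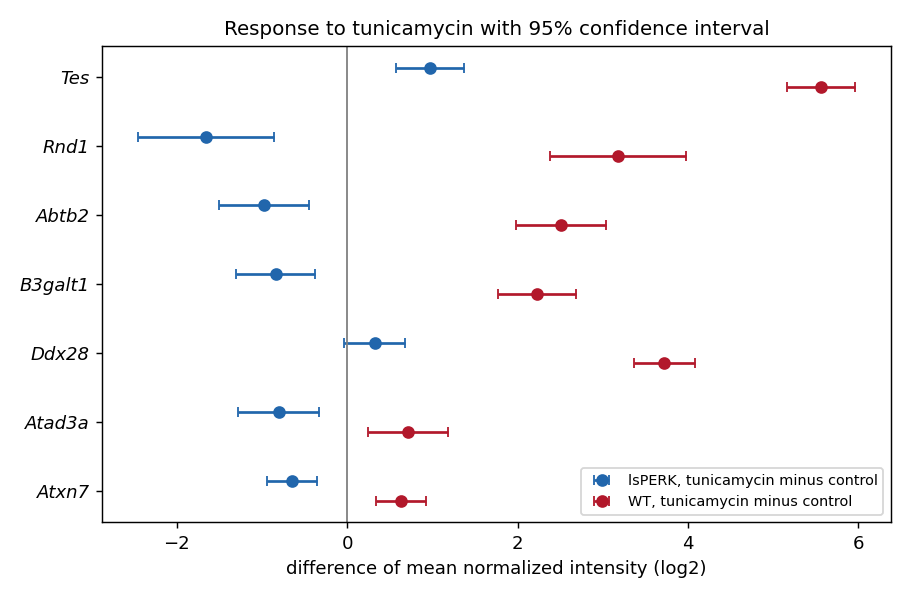
Difference of mean normalized log2 intensity between tunicamycin and control for the 7 genes, in lsPERK liver (blue) and WT liver (red), with 95% confidence intervals from limma. WT responses run from 0.63 to 5.56, and lsPERK responses from −1.65 to 0.97.

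Tes encodes testin, a LIM-domain protein of focal adhesions and actin filaments. In lsPERK liver its normalized intensity was 137, 128.9, 141.4 and 180 after tunicamycin and 75.49, 57.85 and 93.89 under control. In WT liver it was 2422, 3156, 2494 and 2479 after tunicamycin and 65.54, 46.17 and 56.69 under control. Tunicamycin values lay above control values in both genotypes, and the 4 WT tunicamycin arrays lay above every other array. The response was 0.97 on the log2 scale in lsPERK liver (SE 0.18, 1.96-fold) and 5.56 in WT liver (SE 0.18, 47.2-fold). The WT control values were not far above the threshold of the filter on low values (41.5), so the WT fold rests on dim control arrays. Tes alone of the 7 was called higher in lsPERK liver, and its difference of responses was −4.59 (SE 0.26). The ranges of lsPERK control and WT control overlapped.

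The second probe set of Tes, 1424246_a_at, gave a WT response of 4.73. It was dim under control: 17.6, 8.87 and 62.31 in lsPERK liver and 49.72, 32.41 and 81.73 in WT liver. The lsPERK control group averaged under the filter threshold of 41.5. With values under that threshold raised to it, the lsPERK tunicamycin mean was 1.95-fold above lsPERK control. This is an estimate from group means and not a lower confidence limit, and the lsPERK groups overlapped on this probe set. WT tunicamycin replicate 2 was the highest Tes array, and without it the WT response was 5.47.

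Of 22 other focal adhesion and LIM genes measured, 1 was called higher and 0 lower in lsPERK liver, and 2 higher and 10 lower in WT liver, where their median was −0.29 against −0.13 for all genes. With deposited values the WT counts were 5 higher and 1 lower of 23, and with median centring 4 and 6, so the direction of this group depends on the scaling. Stellate, sinusoidal endothelial and Kupffer markers were called lower in WT liver for 2 of 5, 2 of 6 and 1 of 7, and their part in these counts was not tested. Actn1, an actin cross-linker, had responses of −0.01 in lsPERK and −1.44 in WT liver (SE 0.21 each), with a difference of 1.43 (limma adjusted p = 0.00503). Vcl, the adhesion protein vinculin, had responses of 0.10 and −1.09, and a difference of 1.19 (limma adjusted p = 0.00535). Parva, which links the kinase ILK to actin, had −0.38 and −1.16, and Pdlim5, a LIM protein of actin filaments, −0.15 and −0.99. With deposited values the differences of all 4 were no longer called and kept their sign.

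Rnd1 is a small GTP-binding protein that stays bound to GTP and acts against actin stress fibres. Its normalized intensity in lsPERK liver was 98.44, 64.45, 58.92 and 40.25 after tunicamycin and 204.2, 239.7 and 153.9 under control. The WT arrays read 834.5, 1990, 832.3 and 708.6 after tunicamycin and 135.8, 138.4 and 70.69 under control. The groups moved in opposite directions and overlapped with their own controls in neither genotype. The response was −1.65 in lsPERK liver (SE 0.37, 3.15-fold lower) and 3.18 in WT liver (SE 0.37, 9.05-fold higher), a difference of −4.83 (SE 0.52). Rnd1 fell furthest of the 7 in lsPERK liver and has 1 probe set.

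Under control, Rnd1 was higher in lsPERK than in WT liver on every array, by 0.83 on the log2 scale (SE 0.40), and it was not called. WT tunicamycin replicate 2 stood well above the other 3 arrays of its group, and without it the WT response was 2.84. That array was the 1 of 4 in its group with a Xist signal above 1000. Such a signal was also present on 1 of 3 WT control, 2 of 4 lsPERK tunicamycin and 2 of 3 lsPERK control arrays. Whether this bears on Rnd1 was not tested beyond the fit with Xist as a covariate, where the sign and call held. In that fit the control difference of Rnd1 was 0.58.

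**Figure D2:**
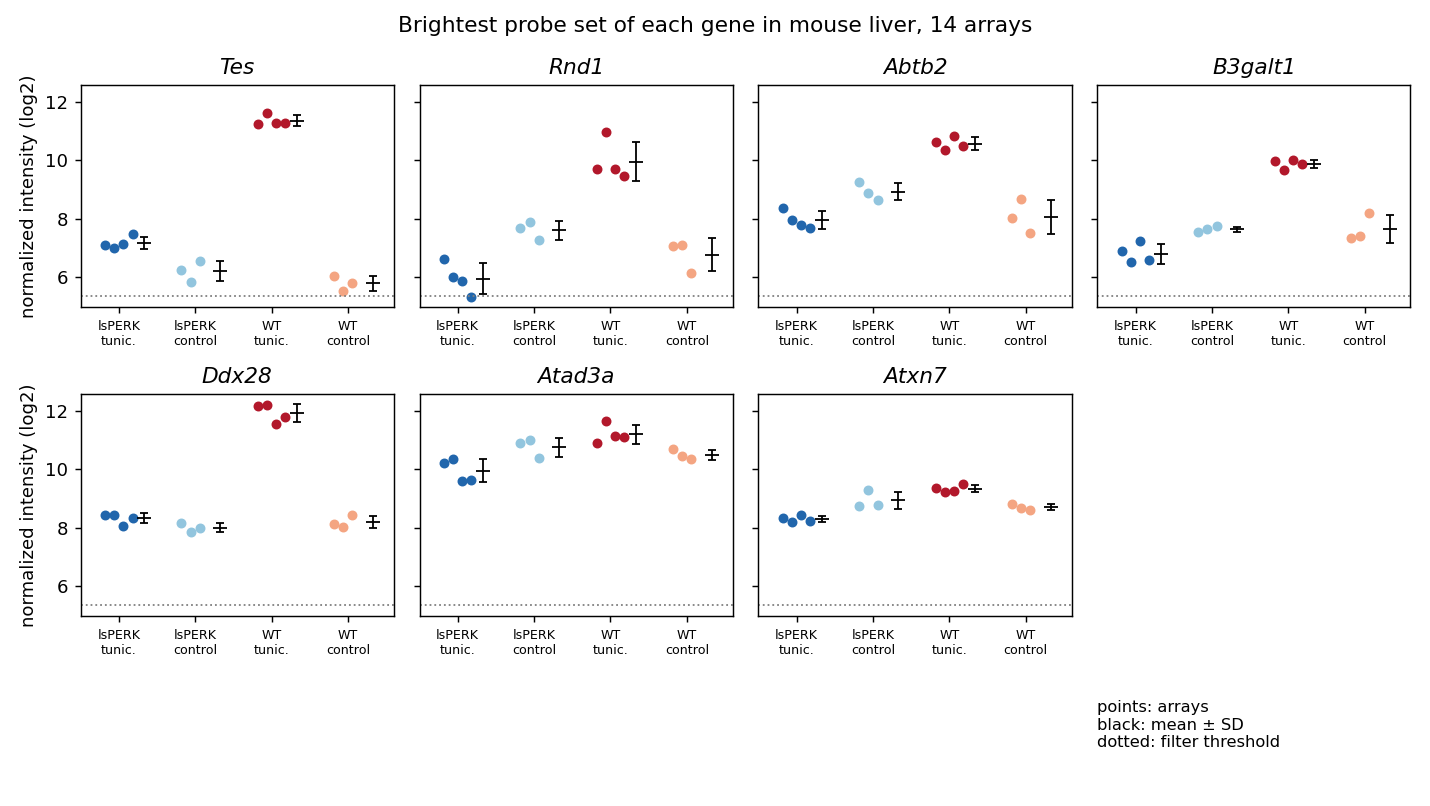
Normalized log2 intensity of the 7 genes on every array in lsPERK liver after tunicamycin, lsPERK control, WT liver after tunicamycin and WT control. Points are arrays (n = 4, 3, 4 and 3), black marks are the mean ± SD of log2 values, and the dotted line is the filter threshold. WT tunicamycin arrays are the highest group in each panel, and for Atad3a and Atxn7 that group overlaps lsPERK control.

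Abtb2 is an ankyrin-repeat and BTB protein, and in human cells it is linked to CUL3-type ubiquitination of the elongation factor eEF1A1. In lsPERK liver its normalized intensity was 331.4, 249.7, 220.3 and 207.2 after tunicamycin and 612.3, 472.3 and 403.7 under control. In WT liver it was 1576, 1304, 1844 and 1432 after tunicamycin and 258.6, 408.3 and 183.5 under control. Tunicamycin arrays lay below control in lsPERK liver and above it in WT liver, with no overlap. The response was −0.98 in lsPERK liver (SE 0.25, 1.97-fold lower) and 2.51 in WT liver (SE 0.25, 5.68-fold higher), a difference of −3.49 (SE 0.35).

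On the brightest probe set, control levels of Abtb2 were higher in lsPERK than in WT liver by 0.86 (95% confidence interval 0.30 to 1.43). The arrays overlapped and there was no call. On 1433454_at this control difference was 0.14 (95% confidence interval −0.40 to 0.68). The second kept probe set, 1433454_at, gave −0.23 in lsPERK liver and 2.52 in WT liver, and its lsPERK response was not called. Another, 1444771_at, did not pass the filter on low values. The fall was not called with deposited values (−1), with median centring (−0.88) or without lsPERK control replicate 1 (−0.82).

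Of 24 measured BTB and CUL3 ligase genes, 1 was called higher and 5 lower in lsPERK liver, and 3 higher and 5 lower in WT liver. The median WT response was −0.02, and with deposited values it was 0.51, with 10 higher and 0 lower. Btbd10, a BTB protein, was called higher in both genotypes, by 0.71 in lsPERK and 1.36 in WT liver (SE 0.16 each), though with deposited values the lsPERK call was lost. Btbd2, another, was called lower in both, with −0.71 and −0.91, but in neither with deposited values. Kctd13, a CUL3 adaptor, had 0.23 and 0.96. Cul3, the scaffold of these ligases, was called lower in lsPERK liver, with −0.38 against 0.15 in WT liver, and this call was lost with deposited values and with median centring. Spop, a CUL3 adaptor, had 0.13 and −0.34, and with deposited values its WT response turned to 0.13.

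B3galt1 is a Golgi enzyme that transfers galactose in β1,3-linkage to N-acetylglucosamine. The lsPERK arrays had normalized intensities of 119, 91.29, 153.1 and 95.92 after tunicamycin and 189.8, 199.2 and 214.2 under control. WT arrays gave 997.1, 813.9, 1029 and 938.2 after tunicamycin and 161.7, 169.6 and 295.1 under control. Both genotypes separated from their controls, in opposite directions, and the lsPERK tunicamycin arrays were the lowest of all. The response was −0.84 in lsPERK liver (SE 0.21, 1.79-fold lower) and 2.23 in WT liver (SE 0.21, 4.69-fold higher), a difference of −3.07 (SE 0.30). Group means under control differed by under 0.01 on the log2 scale.

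Of the other 4 probe sets of B3galt1, 3 gave WT responses from 2.42 to 3.39 and lsPERK responses from −1.01 to −0.30, the same directions as the brightest. On 1441396_at and 1450530_at, however, the lsPERK groups overlapped. The remaining one, 1422206_at, read 33.15, 15.82, 28.37 and 35.31 after tunicamycin and 35.06, 45.33 and 38.03 under control in lsPERK liver. In WT liver it read 1451, 648.5, 805.3 and 523.2 after tunicamycin and 28, 41.57 and 45.26 under control. All its groups except WT tunicamycin averaged under the filter threshold. With values under that threshold raised to it, the WT tunicamycin mean was 18.6-fold above WT control. This is an estimate from group means and not a lower confidence limit. The fall of the brightest probe set in lsPERK liver was not called without lsPERK tunicamycin replicate 2 (−0.74), without lsPERK control replicate 2 (−0.84) or without lsPERK control replicate 3 (−0.79). With the lowest kept probe set, 1422206_at, the lsPERK fall (−0.54) was not called either.

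Of 14 measured β-galactosyltransferase and N-acetylglucosamine chain genes, 1 was called higher and 1 lower in lsPERK liver, and 4 higher and 2 lower in WT liver. Their WT median was 0.14, and with deposited values it was 0.40, with 7 higher and 1 lower of 15. B3gnt2, which extends N-acetyllactosamine chains, had responses of −0.20 in lsPERK liver and 0.72 in WT liver (SE 0.11 each), a difference of −0.92 (limma adjusted p = 0.00151). B3galnt2, an enzyme of dystroglycan glycans, had −0.09 and 0.46. B4galt1, the main galactosyltransferase of N-glycans, was called lower in both genotypes, with −0.89 and −1.02, though its WT fall was not called with deposited values (−0.47). B4galt5, which makes lactosylceramide, had 0.11 and −1.47 with a difference of 1.58, not called with deposited values.

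Ddx28 is a DEAD-box RNA helicase that in human cells acts in mitochondrial RNA granules and in assembly of the large mitochondrial ribosomal subunit. In lsPERK liver its normalized intensity was 345.8, 348.4, 269.7 and 319.1 after tunicamycin and 284.6, 229.1 and 254.8 under control. In WT liver it was 4547, 4733, 3014 and 3496 after tunicamycin and 280.2, 262.5 and 344.4 under control. The lsPERK groups overlapped, and each WT tunicamycin array was far above the other 10 arrays. The response was 0.32 in lsPERK liver (95% confidence interval −0.04 to 0.68) and 3.72 in WT liver (SE 0.17, 13.2-fold), a difference of −3.40 (SE 0.24). The lsPERK response of Ddx28 was the 1 of 7 not called in either direction, which does not show that it was absent. Ddx28 has 1 probe set, and its control levels overlapped between genotypes.

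The mitochondrial RNA granule and ribosome assembly genes were mixed. Of 28 measured, 2 were called higher and 0 lower in lsPERK liver, and 10 higher and 7 lower in WT liver. With deposited values 12 were higher and 0 lower in WT liver, and with median centring 11 and 4. Mterf3, a regulator of mitochondrial transcription and ribosome assembly, had responses of 0.20 in lsPERK and 1.28 in WT liver (SE 0.10 each), with a difference of −1.08 (limma adjusted p = 0.000289). Tfb1m, which methylates the small ribosomal RNA of mitochondria, had 0.36 and 1.55 (SE 0.17 each), with a difference of −1.20 (limma adjusted p = 0.00422). Fastkd3, a mitochondrial RNA-binding protein, was called higher in both genotypes, with 0.57 and 1.31, and with deposited values in WT liver alone. Lrpprc, which stabilises mitochondrial mRNAs, was called higher in lsPERK (0.34) and lower in WT liver (−0.57), but neither was called with deposited values, where the WT value was −0.08. Its WT fall was also not called with median centring.

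Atad3a is an AAA ATPase of the mitochondrial inner membrane, tied to nucleoids and to contacts with the endoplasmic reticulum. Normalized intensities in lsPERK liver were 1186, 1303, 778.8 and 791.1 after tunicamycin and 1892, 2028 and 1336 under control. Intensities in WT liver were 1925, 3226, 2250 and 2177 after tunicamycin and 1645, 1389 and 1289 under control. Groups separated within each genotype by small gaps, and WT tunicamycin overlapped lsPERK control. The response was −0.80 in lsPERK liver (SE 0.22, 1.75-fold lower) and 0.71 in WT liver (SE 0.22, 1.64-fold higher), a difference of −1.52 (SE 0.31).

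The 3 other probe sets of Atad3a gave smaller WT responses, from 0.33 to 0.37, and lsPERK responses from −0.64 to −0.56. Of the 4 probe sets, 3 carry the suffix that Affymetrix gives to sets whose probes may bind other transcripts, the brightest, 1438178_x_at, among them. The set without the suffix, 1422461_at, gave −0.56 in lsPERK and 0.33 in WT liver. On 1437343_x_at and 1456541_x_at the WT groups overlapped. The WT rise was not called with the lowest kept probe set (0.33), with the actin ratio as a covariate (0.57) or without WT control replicate 3 (0.64), and without WT tunicamycin replicate 2 it was 0.56. The lsPERK fall was not called with deposited values (−0.81), with median centring (−0.69), or without lsPERK tunicamycin replicate 3 or 4 or lsPERK control replicate 1 or 2 (−0.74 to −0.69).

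Of 25 measured genes of inner membrane AAA proteins, nucleoids and cristae, 1 was called higher and 2 lower in lsPERK liver, and 7 higher and 11 lower in WT liver. With deposited values 9 were higher and 0 lower in WT liver, and with median centring 8 and 6. Hspa9, the mitochondrial HSP70, had responses of 0.04 in lsPERK liver and 0.80 in WT liver (SE 0.10 each), with a difference of −0.76 (limma adjusted p = 0.00288) that median centring left uncalled. Immt, the cristae organiser mitofilin, had −0.05 and −0.61. Tfam, which packs mitochondrial DNA, had −0.23 and −0.63, and Polg, the mitochondrial DNA polymerase, 0.06 and −0.60. These 3 WT falls were not called with deposited values, where they were between −0.09 and −0.03.

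Atxn7 is a subunit that anchors the deubiquitinase module of the SAGA coactivator, and expansion of its polyglutamine tract causes spinocerebellar ataxia. In lsPERK liver its normalized intensity was 321.7, 292.2, 342 and 301.5 after tunicamycin and 429.6, 621.5 and 443.3 under control. WT liver gave 661.4, 602.7, 605.9 and 728.3 after tunicamycin and 450.8, 413.1 and 392.4 under control. Within each genotype no tunicamycin array overlapped control, and the highest lsPERK control array exceeded the lowest WT tunicamycin array. The response was −0.65 in lsPERK liver (SE 0.14, 1.56-fold lower) and 0.63 in WT liver (SE 0.14, 1.55-fold higher), a difference of −1.28 (SE 0.19).

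Of the other Atxn7 probe sets, 1 had the same sign as the brightest in lsPERK liver and 1 the opposite. On 1426287_at the responses were −0.17 in lsPERK (95% confidence interval −0.85 to 0.51) and 1.24 in WT liver, and on 1442186_at they were 0.21 and 0.22, a difference of −0.01. On the brightest probe set the lsPERK fall was not called with deposited values (−0.67). With the lowest kept probe set, neither that fall (−0.17) nor the difference of responses (−1.41) was called.

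Of 21 measured SAGA subunits, 0 were called in lsPERK liver in either direction, and 7 were called higher and 3 lower in WT liver. With deposited values 12 were higher and 0 lower in WT liver. Tada2b, an adaptor of the acetyltransferase module, had responses of 0.36 in lsPERK and 1.22 in WT liver (SE 0.15 each), with a difference of −0.86 (limma adjusted p = 0.0119). Taf5l, a core subunit, had −0.07 and 0.58, and Supt3, another, −0.32 and 0.34. Kat2b, the acetyltransferase PCAF, had 0.02 and −0.51, and Taf10, shared with TFIID, 0.06 and −0.31. The WT response of Taf10 turned to 0.08 with deposited values, and that of Kat2b was not called (−0.11).

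**Figure D3:**
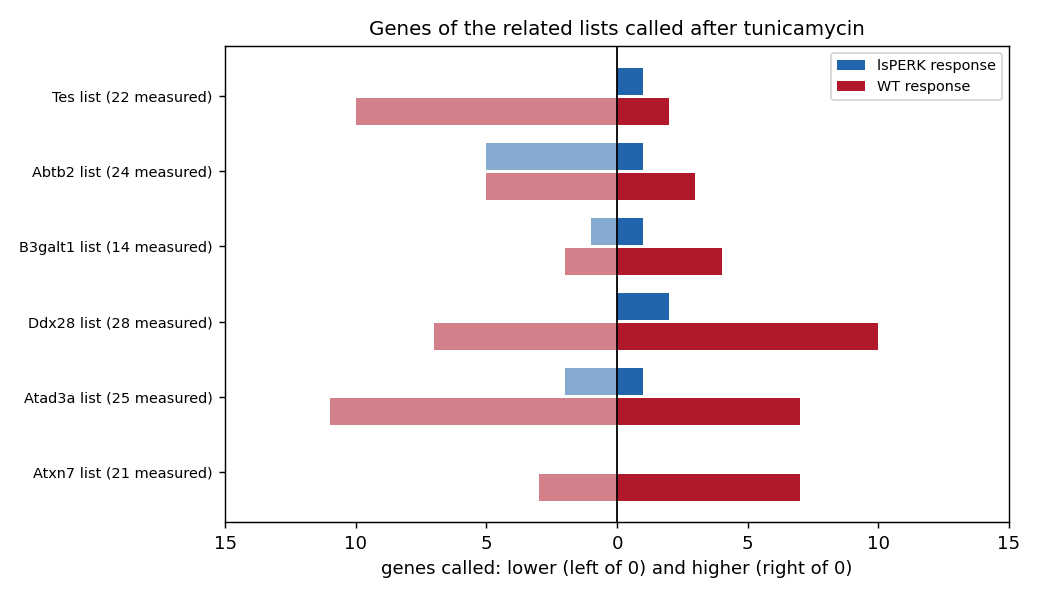
Number of genes called higher (right of 0) and lower (left of 0) after tunicamycin in the lists around 6 of the 7 genes, in lsPERK liver (blue) and WT liver (red), with quantile normalization. The longest bar to the left is that of the 11 genes lower in WT liver in the list around Atad3a, and with deposited values every lower count shown is 0 or 1. Over all genes, 8.42% were called higher and 7.27% lower in lsPERK liver, and 20.7% and 26.0% in WT liver.

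A list of genes known from PERK, the integrated stress response and endoplasmic reticulum stress gives the scale. It holds Eif2ak3, the gene of PERK itself. It also holds Hspa5, Dnajb9 and Atf6, which belong to other arms of the endoplasmic reticulum stress response. Its counts and medians therefore do not describe PERK targets alone. Of 15, 8 were called higher and 0 lower in lsPERK liver, and 15 higher and 0 lower in WT liver, and 11 differences of responses were called below 0. With deposited values 6 were called higher in lsPERK liver. Their median response was 1.02 in lsPERK liver and 3.39 in WT liver. The median of the 7 genes was −0.80 in lsPERK liver and 2.51 in WT liver, beside −0.02 and −0.13 for all genes. Ppp1r15a, the eIF2 phosphatase subunit GADD34, had 0.64 and 3.39, Ddit3, which encodes CHOP, 2.45 and 6.12, and Trib3, a pseudokinase that restrains CHOP, 0.63 and 5.99. In lsPERK liver none of these 15 was called lower, whereas 5 of the 7 were; the 7 were picked partly on that response, and the contrast was not tested.

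**Figure D4:**
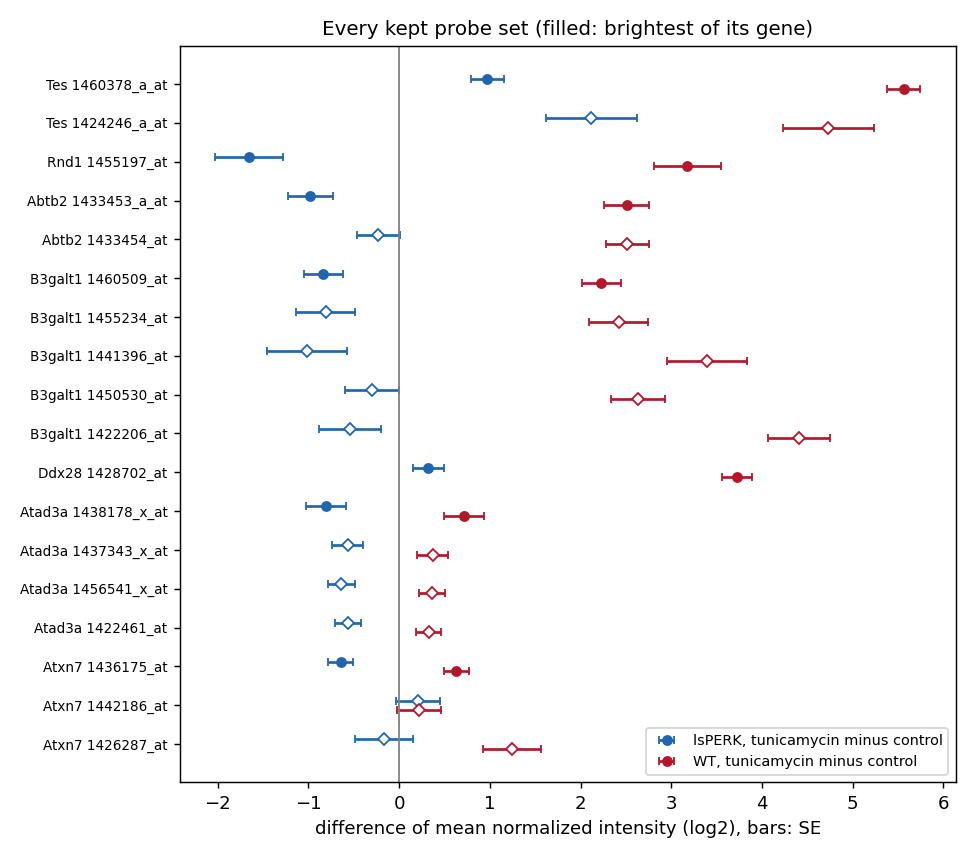
Tunicamycin response of every kept probe set of the 7 genes, as a difference of mean normalized log2 intensity, in lsPERK liver (blue) and WT liver (red). Filled points are the brightest probe set, open points the others and bars the SE. All WT responses lie above 0, and the lsPERK point of 1424246_a_at and both points of 1422206_at rest on groups that average under the filter threshold, so their sizes are not exact.

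Over the 11 other kept probe sets, the WT response was above 0 in 11, and the lsPERK response was above 0 in 2 and below 0 in 9. Among those below 0, the lsPERK groups overlapped on 1433454_at, 1441396_at, 1450530_at, 1422206_at and 1426287_at. In WT liver the groups overlapped on 1437343_x_at, 1456541_x_at and 1442186_at. The difference of responses was below 0 in all 11, and nearest to 0 on 1442186_at (−0.01). After tunicamycin the difference lsPERK minus WT was below 0 in all 11, and nearest to 0 on the same probe set (−0.37). Under control the difference lsPERK minus WT was above 0 in 9 and below 0 in 2, from −1.25 to 0.85. The lowest was that of Tes on 1424246_a_at, where the brightest probe set of Tes gave 0.42. These other probe sets read the same RNA samples as the brightest ones.

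Under control, no gene was called between lsPERK and WT liver: limma called 0% of the 12085 genes, 512 had an unadjusted p under 0.05, and the smallest adjusted p was 0.309. Of the 7 genes, 0 were called. Their median difference was 0.27, beside −0.02 for all genes, with values from −0.20 for Ddx28 to 0.86 for Abtb2. With deposited values the median of all genes was itself 0.30. The control arrays enter both responses, so these differences are not independent of the choice of genes.

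WT tunicamycin was the highest group for all 7 genes. It stood apart from the next group for Tes, Rnd1, Abtb2, B3galt1 and Ddx28, and overlapped lsPERK control for Atad3a and Atxn7. The lowest group was lsPERK tunicamycin for Rnd1, Abtb2, B3galt1, Atad3a and Atxn7, and of these it stood apart from the next group for B3galt1 and Atxn7. The lowest group was WT control for Tes and lsPERK control for Ddx28, each overlapping the next. The genes were picked for a rise in WT liver that was smaller or turned round in lsPERK liver, so these orders partly follow from the choice. The share of all genes with the same orders or gaps was not counted.

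The genes whose log2 intensities correlated best with each member over the 14 arrays (Pearson's r) differed from member to member. Tes was nearest to Cactin (0.99), Ifrd1 (0.989) and Ppp1r15a (0.988), and Ddx28 to Twistnb (0.993), Sqstm1 (0.991) and Gars (0.989). B3galt1 was nearest to Ypel5 (0.984), Nfil3 (0.971) and Gtf2a2 (0.971). Rnd1 was nearest to Psmc2 (0.968), Mxd1 (0.96) and Tdrd3 (0.957), and Abtb2 to Pnrc2 (0.962), Epg5 (0.954) and Cyp2b10 (0.949). Atxn7 was nearest to Map3k21 (0.942), Krcc1 (0.939) and Elf2 (0.931), and Atad3a to Mef2a (0.927), Vdac3 (0.926) and Rnd1 (0.909). The arrays share their groups, so these values mostly describe group means, and only 4 of the 21 names were among the nearest 3 by Spearman's rank correlation and 7 of 21 with deposited values.

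The 21 pairs among the 7 genes had r from 0.565 to 0.974 over the 14 arrays. With group means subtracted, r ran from −0.512 to 0.776 with a median of −0.069, and 9 of 21 were above 0. The highest was that of Rnd1 and Atad3a. Both were highest on WT tunicamycin replicate 2, but so were Tes and Ddx28, so this was not particular to the pair.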

How the data were processed

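The authors deposited 1 linear intensity per probe set and array (0.03116 to 27760), and per the submitters' processing notes used MAS5 and GCOS, which summarise a probe set's probes. The sources used here name no version, scaling target or genome build. Per the labels' protocols, biotinylated cRNA came from 100 ng of RNA.

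Of 45101 probe sets, 64 controls were removed. The deposited intensities were taken to log2 and quantile normalized. The platform annotation gave 1 gene to 34945 probe sets, several to 932 and none to 9160. A probe set was kept where 3 or more arrays exceeded the pooled median (41.48, log2 5.37), which left 25316, 21808 with 1 gene. The brightest kept probe set stood for each of 12085 genes. All 7 members passed, with 18 of their 19 probe sets.

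In R 4.3.3, limma 3.58.1 fitted 1 mean per group for 4 groups (10 residual degrees of freedom), with 5 two-sided contrasts and Benjamini-Hochberg adjustment over all genes. The threshold for a call was an adjusted p under 0.05. The fit was checked on simulated data with independent normal noise. Those data had no differences of scale between arrays, so the check does not bear on the scaling. The number of arrays limits the precision.

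The members and lists were chosen with earlier results of these data known. From each list, up to 3 called genes of smallest p in the WT response and up to 3 in the difference of responses were named. The list around Rnd1 is not reported here. For each member, the 3 genes of highest Pearson correlation were named. Motifs were searched with Python 3.11.15 in RefSeq windows on GRCm38.p6, and figures were drawn with matplotlib 3.10.9. Alternatives changed the scaling, filter, probe set, covariates, replicate block and arrays left out.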

Additional observations from a re-analysis of the deposited data

Results flagged for a closer look

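In 4 of 94 groups of 4 arrays, 1 array stood far from the other 3 by Dixon's test, which chance gives in about 5% of groups. WT tunicamycin replicate 2 was such an array for Rnd1 (1990, others 708.6 to 834.5) and for Tes (3156, others 2422 to 2494). WT tunicamycin replicate 1 was one for Polg (570.9, others 469.2 to 479.4), and lsPERK tunicamycin replicate 2 for Taf5l (275.6, others 245.8 to 248.4).

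For 5 members every lsPERK array after tunicamycin lay below every lsPERK control array and every WT array after tunicamycin above every WT control array. Their differences of responses were −4.83 for Rnd1, −3.49 for Abtb2, −3.07 for B3galt1, −1.52 for Atad3a and −1.28 for Atxn7, and because these genes were chosen on them, their calls in the fit over all genes are no independent test. Over all genes, 13.8% lay wholly below control in lsPERK liver and 21.6% wholly above control in WT liver. The share of all genes with both was not counted, so nothing is read from the count of members.

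The responses of several related genes differed between lsPERK and WT liver by limma's test of the difference, lsPERK minus WT (adjusted p under 0.05). Differences above 0 were those of Pdlim5 (0.843), Actn1 (1.43), Parva (0.783), Vcl (1.19), Spop (0.469), B4galt5 (1.58), Lrpprc (0.907), Immt (0.56), Tfam (0.401), Polg (0.659) and Taf10 (0.38). None of these differences above 0 was called with deposited values, where those of Spop and Tfam turned below 0, and those of Parva, Spop, Immt, Tfam, Polg and Taf10 were not called with median centring. Those below 0 were Cul3 (−0.53), B3gnt2 (−0.918), B3galnt2 (−0.542), Mterf3 (−1.08), Fastkd3 (−0.738), Tfb1m (−1.2), Hspa9 (−0.759), Tada2b (−0.86), Taf5l (−0.643), Supt3 (−0.656), Ddit3 (−3.67), Ppp1r15a (−2.75) and Trib3 (−5.36). Those of Cul3 and Hspa9 were not called with median centring, and those of Parva, Tfam, Cul3, B3galnt2, Taf5l and Supt3 were not called without the filter on low values.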

How the results depend on the processing

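None of the 7 genes reversed a called direction under any alternative. Of 182 values per contrast, calls were lost in 16 for the lsPERK response, 3 for the WT response and 1 for the difference of responses. In the lsPERK response, 6 members were called, against 3 with deposited values and 3 with the lowest kept probe set, and the genes called were 1897, against 695 and 1213. Genes called between lsPERK and WT after tunicamycin were 2662 with deposited values, against 4269, and those with a called difference of responses were 1442 with the lowest kept probe set, against 2401. Between genotypes under control, 1 gene was called with the actin ratio as a covariate and 1 with Xist. With deposited values Spop and Taf10 reversed in the WT response (0.132 and 0.0784), and Spop and Tfam in the difference (−0.0129 and −0.12). The cause of these changes was not tested.

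Leaving out 1 array at a time, 4 to 6 members and 1119 to 2057 genes were called in the lsPERK response, the lowest count without lsPERK control replicate 2. In the WT response it was 6 to 7 members and 4897 to 5707 genes. For the difference all 7 members and 1928 to 2291 genes were called, between genotypes after tunicamycin all 7 and 3685 to 4362, and under control 0 members and 0 to 1 gene. Same-numbered arrays deviated from their group means with correlations of −0.366 to 0.419 (0.164 to 0.349 for replicate 3). Since not every correlation was above 0.1, and no label gives a shared animal or batch, the numbers were not taken to pair the samples. With the replicate number as a block, 6 members and 1666 genes were called in the lsPERK response, 7 and 5472 in the WT response, 7 and 2243 for the difference, 7 and 4256 between genotypes after tunicamycin, and 0 and 0 under control.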
